A study of Mus musculus with 2 samples.

Results

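Genes of actin filaments and their contractile partners, 10 in all, were followed among the 26127 genes of the deposited expression table. They are a list of names, with no threshold on their values, drawn up when earlier results of these data were known: the cytoplasmic actin genes Actb and Actg1, the smooth muscle actin gene Acta2, the tropomyosin genes Tpm1, Tpm2 and Tpm4, the contractile genes Tagln, Cnn1 and Myl9, and Srf itself. The study sequenced RNA of PS10, a female extraembryonic endoderm stem (XEN) cell line of the ICR strain, a model of the primitive endoderm of the blastocyst. One culture received a locked nucleic acid (LNA) against Gata6-AS, the antisense RNA beside the endoderm factor gene Gata6, and the other a control LNA, both with a lipid reagent. The sample titles name these treatments siRNA-Gata6AS and siRNA-Control. The sources used here give neither the dose nor the time after transfection. There was 1 library per group from 1 cell line, so no test between the conditions is possible. Differences below compare these 2 libraries.

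Actin filaments are helical polymers of actin, coated along their groove by tropomyosins and pulled on by myosin II. In stromal and muscle cells, calponin and transgelin bind along the same filaments. Many of the genes for these proteins are controlled by serum response factor (SRF), which binds a short DNA element called the CArG box. SRF works with a coactivator family, the myocardin-related factors, which are kept out of the nucleus by free actin monomers, so that the state of the actin pool feeds back on actin genes. Extraembryonic endoderm stem cells can form parietal endoderm, a layer of migrating cells that lie on a thick basement membrane.

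Levels are in RPKM, that is, reads divided by the length of the gene in kilobases and by 1000000 reads of the library, so genes can be compared with each other. The steps in the RPKM values correspond to 1.04e+08 reads in the control library and 1.23e+08 reads in the library with the Gata6-AS LNA, here called the depleted library. The RNA that the LNA targets has the symbol 1010001N08Rik in the table and was measured at 10.1 RPKM with the control LNA and 5.83 RPKM with the Gata6-AS LNA, or 57.8% of control. All 12 XEN cell markers looked at were above 1 RPKM, with a summed level of 6066 RPKM with the control LNA and 4559 RPKM with the Gata6-AS LNA. Sparc was at 2104 and 1689 RPKM, Lama1 at 1125 and 828 RPKM and Sox7, the 1 marker past 1.5-fold, at 145 and 59.4 RPKM. Of 8 fibroblast markers, 7 were below a mean of 1 RPKM and 4 were listed at 0 in both libraries, with Pdgfrb at 3.82 and 4.61 RPKM. Of 6 embryonic stem cell markers 5 were below a mean of 1 RPKM, with Nanog at 4.61 and 5.07 RPKM, as were 6 of 6 trophoblast markers.

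The 10 genes spanned more than 3 orders of magnitude, and their order was almost the same in both libraries. Actg1, Actb and Tpm4 stood above 100 RPKM, Srf and Tpm1 between 20 and 30 RPKM, and Cnn1 and Tpm2 near or below 1 RPKM. Between them lay Myl9, Tagln and Acta2, within 3 RPKM of each other in the control, and there the order changed. Tagln moved from below Myl9 to above it, its level going from 0.795 times to 1.36 times that of Myl9. On the plot of levels this is the widest gap between the libraries among the genes above 1 RPKM.

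**Figure D1:**
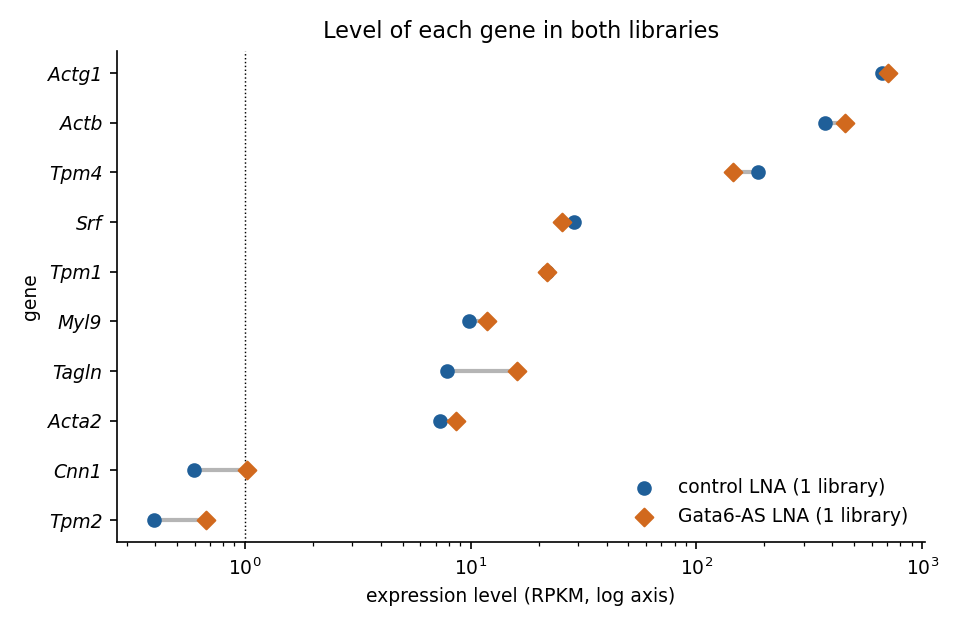
Level of each of the 10 genes in RPKM on a log axis, with 1 point per library (circles, control LNA; diamonds, Gata6-AS LNA) and a dotted line at 1 RPKM. Tagln goes from 7.85 to 16.1 RPKM, Tpm4 from 187 down to 145 RPKM, and the points of Tpm1 lie on each other.

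Change was measured as log2(RPKM + 1) of the depleted library minus that of the control, for genes whose mean over both libraries was 1 RPKM or more. This scale understates the change of low genes. By this filter 8 of the 10 genes were measured. Of these, 1 was at least 1.5-fold higher, Tagln, where 3.42% of all 10869 genes measured were that much higher. None was at least 1.5-fold lower, against 1.95% of all genes. With the median of all genes set to 0, the genes past this size number 271 higher and 262 lower, in place of 372 and 212. None of the 8 genes reached 2-fold, which 0.782% of all genes did in either direction. The 8 differences ran from -0.37 to 0.95 with a median of 0.15, and 5 lay above 0. Over all genes measured the median was 0.05 and 58.0% lay above 0.

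**Figure D2:**
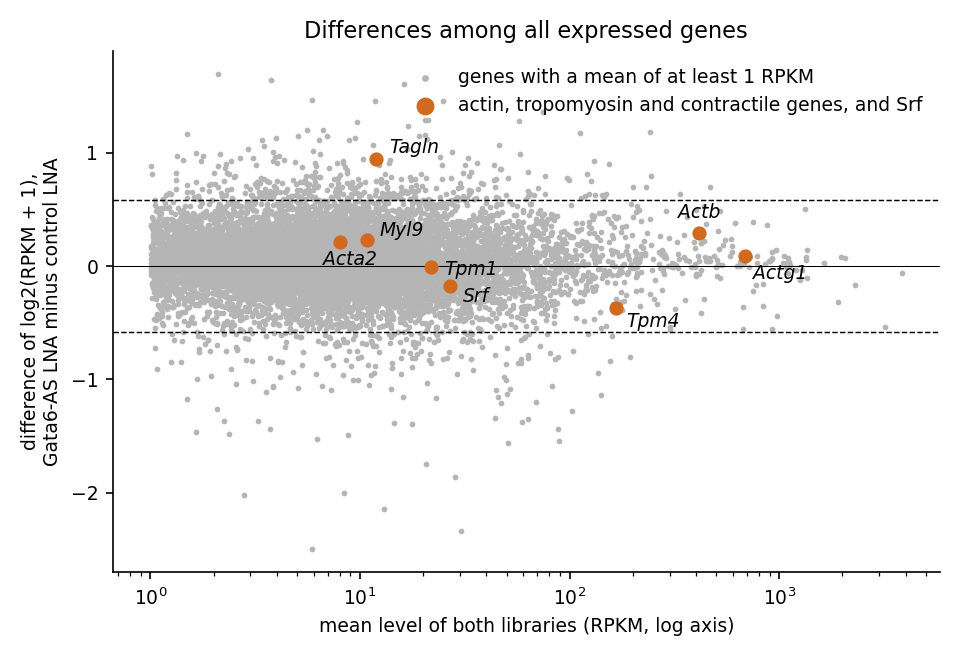
Difference of log2(RPKM + 1), Gata6-AS LNA minus control LNA, against the mean level in RPKM (log axis) for all 10869 genes that passed the filter (grey), with the 8 measured actin, tropomyosin, contractile and Srf genes in orange. Dashed lines mark 1.5-fold. Tagln at 0.95 is the member outside them, and Tpm4 at -0.37 is the lowest.

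The cytoplasmic actins form the filaments of the cell cortex, stress fibres and protrusions in nearly every cell. Actg1, on the minus strand of chromosome 11 (120207004 to 120209856 in mm9), had the higher level, at 662 RPKM with the control LNA and 705 RPKM with the Gata6-AS LNA. Among all genes it had rank 46 in the control library and rank 43 in the other. The ratio of the depleted to the control library was 107% (exact Clopper-Pearson 95% interval 106% to 108%, from 75938 and 96045 reads or more). Such an interval reflects counting error alone: copies made by PCR are not separate molecules, and variation between cultures is not in it. Actb, on the minus strand of chromosome 5 (143664794 to 143668433), stood at 371 RPKM with the control LNA and 455 RPKM with the Gata6-AS LNA. The ratio was 123% (122% to 124%), a log2 difference of 0.29, with 83.5% of all genes measured below it. The ratio of Actb to Actg1, which does not depend on how the libraries are scaled, was 0.561 with the control LNA and 0.646 with the Gata6-AS LNA. Actb serves as a loading reference in many assays. Between these libraries its difference was larger than the median of all genes.

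Acta2, the actin of smooth muscle and myofibroblasts, lies on the minus strand of chromosome 19 (34315580 to 34329826). It was at 7.32 RPKM with the control LNA and 8.66 RPKM with the Gata6-AS LNA, a ratio of 118% (110% to 127%, from 1350 and 1896 reads or more). Its level was 0.0197 times that of Actb with the control LNA and 0.0190 times with the Gata6-AS LNA. The 3 actins together stood at 1040.1 RPKM with the control LNA and 1169 RPKM with the Gata6-AS LNA. The other actin gene with a measurable level was Acta1, the skeletal muscle actin, at 13.0 and 16.1 RPKM (124% of control). It was listed above Acta2 in both libraries, but it shares stretches of sequence with Actb and Actg1, as given below. The cardiac actin Actc1 was listed at 0 in both, and so was Actbl2, while the enteric smooth muscle actin Actg2 was at 0.00618 and 0.0104 RPKM.

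How well reads separate these genes depends on their sequences, which are shown here for the last 60 coding bases. The sequences are those of the longest coding transcript in GENCODE M21, on the GRCm38 assembly, and end with the stop codon. Capitals mark bases that differ from Actb.
Actb: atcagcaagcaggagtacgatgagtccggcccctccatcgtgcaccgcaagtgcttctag
Actg1: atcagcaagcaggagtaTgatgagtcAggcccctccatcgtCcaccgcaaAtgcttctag
Acta2: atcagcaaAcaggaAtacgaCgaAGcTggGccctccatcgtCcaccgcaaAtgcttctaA
Acta1: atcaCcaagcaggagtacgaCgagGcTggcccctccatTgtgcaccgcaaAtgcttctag
Over this stretch Actg1 differs from Actb at 4 bases, Acta1 at 6 and Acta2 at 10. Over the 1128 coding bases aligned from the stop codon, Actb was 88.7% identical to Actg1, 85.0% to Acta1 and 83.0% to Acta2. Of the 1871 stretches of 50 bases in the Actb transcript, 30 also occur in transcripts of Actg1 and 28 in those of Acta1. For Acta1, 31 of 1397 stretches are shared with any other gene, and for Acta2 7 of 1986. These are few, but 28 of those of Acta1 occur in Actb and 10 in Actg1, and 7 of Acta2 in Actg1. Actb and Actg1 stood far higher, at 371 and 662 RPKM with the control LNA. For Actg1 itself, 56.7% of its stretches occur in transcripts of other genes, most of them in the gene model Gm12715. The sources used here state neither the read length nor how multiply mapped reads were treated. The levels of Actg1, Acta1 and Acta2 are uncertain to that extent, and what shared reads add to each was not tested. For Actb the shared part is 14.2%.

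Tropomyosins lie along actin filaments and decide which other proteins can bind there. Tpm4, a tropomyosin of nonmuscle cells, was the main one in these cells by level. It lies on the plus strand of chromosome 8 (74658874 to 74677041) and stood at 187 RPKM with the control LNA and 145 RPKM with the Gata6-AS LNA. The ratio was 77.3% (76.2% to 78.3%, from 42768 and 39234 reads or more), a log2 difference of -0.37, with 6.11% of all genes measured below it. Tpm4 thus stood lower while Actb stood higher. The level of Tpm4 relative to Actb was 0.505 with the control LNA and 0.318 with the Gata6-AS LNA. Actg1, with a log2 difference of 0.09, lay near the median of all genes, 0.05. The gene models Gm17371 and Gm16091 overlap Tpm4 on the opposite strand, the first at 78.2% and the second at 96.8% of control, from 12.8 and 3.03 RPKM with the control LNA. If reads were counted without regard to strand, which the sources used here do not state, theirs cannot be told apart from those of Tpm4. Of the 2079 stretches of 50 bases in the Tpm4 transcript, 251 also occur in the gene model Gm7809.

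Tpm1, whose isoforms serve both muscle and nonmuscle cells, lies on the minus strand of chromosome 9 (66870397 to 66897213). It was at 21.9 RPKM with the control LNA and 21.8 RPKM with the Gata6-AS LNA. Its ratio was 99.7% of control (97.6% to 102%, from 14704 and 17410 reads or more), an interval that holds 100%. The table gives 1 value for the gene, so a shift between its isoforms would not show. Tpm2, a tropomyosin of contractile cells, lies on the minus strand of chromosome 4 (43527583 to 43536637) and was at 0.395 RPKM with the control LNA and 0.671 RPKM with the Gata6-AS LNA. The ratio was 170% (136% to 213%, from 119 and 240 reads or more), at a level below the filter. By summed level these 3 tropomyosins stood at 79.8% of control. Tpm4 made up 89.4% of that sum with the control LNA and 86.6% with the Gata6-AS LNA. Tpm3, the remaining tropomyosin gene, is not in that sum and went the other way. It was at 37.2 RPKM with the control LNA and 44.0 RPKM with the Gata6-AS LNA (118% of control). A sum with Tpm3 would show a smaller fall and a smaller share of Tpm4.

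Tagln encodes transgelin, also called SM22, an actin-binding protein used as an early marker of smooth muscle. It lies on the minus strand of chromosome 9 (45737711 to 45744141). Its level was 7.85 RPKM with the control LNA and 16.1 RPKM with the Gata6-AS LNA, a ratio of 205% (192% to 218%, from 1289 and 3131 reads or more). On the log2(RPKM + 1) scale the difference was 0.95, with 99.5% of all genes measured below it. Its rank among all genes went from 5238 to 2972. It was the only member listed in the authors' deposited table, with a log2 difference of 0.96 and a p of 0.00451 from 1 library per group. That table lists 11.9% of the genes that passed the filter. At its 3′ end Tagln shares 65 bp with Pcsk7 on the opposite strand, which was at 4.38 RPKM with the control LNA and 3.87 RPKM with the Gata6-AS LNA, lower where Tagln was higher. No stretch of 50 bases of the Tagln transcript occurs in another gene.

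Transgelins and calponins are related actin-binding proteins. Tagln2, the widely expressed transgelin, was at 200 RPKM with the control LNA and 216 RPKM with the Gata6-AS LNA (108% of control). Cnn1, the calponin of differentiated smooth muscle, lies on the plus strand of chromosome 9 (21903725 to 21914074). It was at 0.595 RPKM with the control LNA and 1.03 RPKM with the Gata6-AS LNA, a ratio of 173% (141% to 212%, from 146 and 299 reads or more). Of the 1004 genes with a mean of 0.5 to 1 RPKM, 14.0% had a ratio of at least 1.5, which is the background for the ratios of Cnn1 and Tpm2. The nonmuscle calponins were far more abundant, Cnn3 at 141 and 138 RPKM and Cnn2 at 38.1 and 52.5 RPKM. Myl9, the regulatory light chain of smooth muscle and nonmuscle myosin II, lies on the plus strand of chromosome 2 (156601156 to 156607394). It stood at 9.87 RPKM with the control LNA and 11.8 RPKM with the Gata6-AS LNA, a ratio of 119% (111% to 129%, from 1188 and 1683 reads or more).

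**Figure D3:**
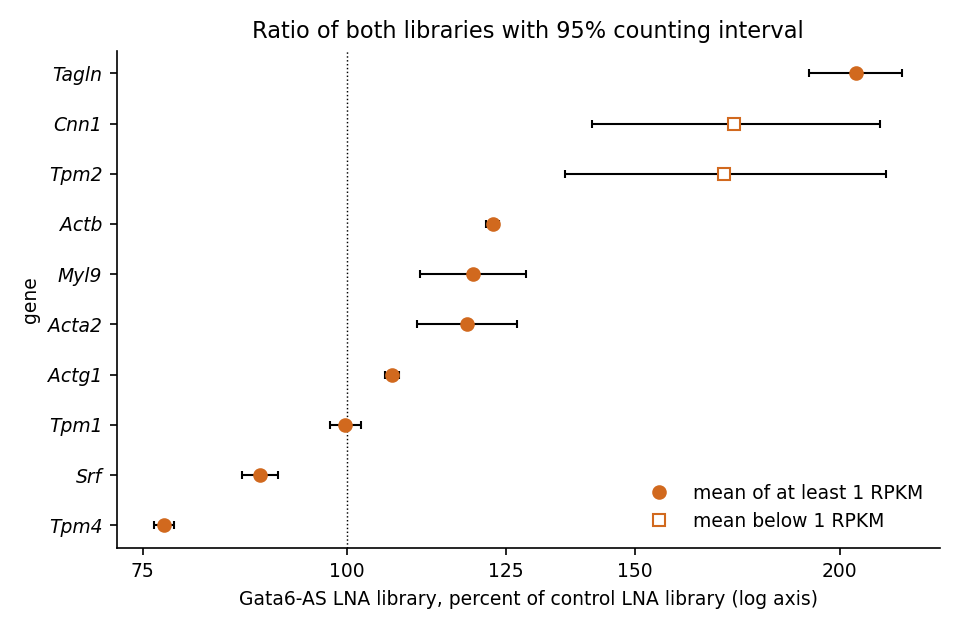
Level in the Gata6-AS LNA library as percent of the control LNA library (log axis) for the 10 genes, with exact 95% intervals that cover counting error only. Filled circles are genes that passed the filter and open squares those with a mean below 1 RPKM. Tagln (205%), Cnn1 (173%) and Tpm2 (170%) lie highest, and Tpm4 (77.3%) and Srf (88.5%) lowest.

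By ratio alone, 7 of the 10 genes were above control and 3 below, with Cnn1 and Tpm2, which did not pass the filter, among those above. Of the 8 that passed it 5 were above, where 58.0% of the 10869 genes measured were above. Counting intervals are not tallied here, since the share of all genes whose interval leaves out 100% was not computed. The 3 highest ratios were those of Tagln, Cnn1 and Tpm2, of which 2 had a mean below 1 RPKM, while Acta2 and Myl9, also of contractile cells, were at 118% and 119%. Of the 10 smooth muscle markers looked at, which include Acta2, Tagln and Cnn1, 7 were below a mean of 1 RPKM and none was listed at 0. Their summed level was 27.8 RPKM with the control LNA and 42.0 RPKM with the Gata6-AS LNA, of which Tagln itself made up 7.85 and 16.1 RPKM. Smtn stood at 9.59 and 13.1 RPKM, Synm at 0.398 and 0.865 RPKM, and Myh11 at 0.446 and 0.537 RPKM. Desmin, Des, was at 0.785 and 0.769 RPKM, and the smooth muscle coactivator gene Myocd at 0.0364 and 0.0221 RPKM. The striated muscle markers went from a summed 45.0 RPKM to 85.0 RPKM, of which Tnnc1, the slow troponin C, made up 29.2 and 62.3 RPKM. Tnni1 was at 1.18 and 2.85 RPKM. Tnnt2, at 0.463 and 1.57 RPKM, passed the filter only through the library where it was high. Of the 12 genes of this list 8 were below a mean of 1 RPKM, among them Actc1 and Myl2, listed at 0 in both libraries. In bulk RNA, more cells of a type and more RNA per cell cannot be told apart. The part of such markers in the level of Tagln was not tested.

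Srf, like Tpm4, stood lower with the Gata6-AS LNA. It lies on the minus strand of chromosome 17 (46683788 to 46693111) and was at 28.6 RPKM with the control LNA and 25.3 RPKM with the Gata6-AS LNA. The ratio was 88.5% (86.3% to 90.7%, from 12124 and 12733 reads or more), a log2 difference of -0.17, with 19.2% of all genes measured below it. The gene model Gm16736 spans all 9324 bp of Srf on the opposite strand, at 1.02 RPKM with the control LNA and 1.13 RPKM with the Gata6-AS LNA. Among the cofactors of SRF, 5 of 9 were measured, none past 1.5-fold, with a median of -0.08. Mkl1, a myocardin-related factor that senses actin monomers, was at 6.55 and 5.21 RPKM (79.5% of control, 76.1% to 83.1%). Its relative Mkl2 was at 3.60 and 3.34 RPKM, and Elk1, of the family that links SRF to growth factor signals, at 4.52 and 4.65 RPKM. Fhl2 stood at 18.3 and 17.6 RPKM.

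The element that SRF binds was searched for in the promoters of the members. RefSeq windows (GRCm38.p6) were found for 8 of the 10 genes, by symbol, and not for Actb and Tagln. The CArG box, searched by its consensus of a CC pair and a GG pair around 6 A or T bases, reads the same on both strands. It occurred in 3 of these 8 windows within 250 bases upstream of the gene start, and in 1.47% of all 32851 windows of that length. The members were listed in part as contractile SRF targets, with Srf itself. A higher share among them was thus set by the choice of genes and is no result of these data. These 3 are printed with the box in capitals, read along the strand of the gene, since they show the element that these 3 share. The Srf window is chr17:46556163-46556412 on the minus strand, that of Actg1 chr11:120348496-120348745 on the minus strand, and that of Myl9 chr2:156775214-156775463 on the plus strand.
Srf: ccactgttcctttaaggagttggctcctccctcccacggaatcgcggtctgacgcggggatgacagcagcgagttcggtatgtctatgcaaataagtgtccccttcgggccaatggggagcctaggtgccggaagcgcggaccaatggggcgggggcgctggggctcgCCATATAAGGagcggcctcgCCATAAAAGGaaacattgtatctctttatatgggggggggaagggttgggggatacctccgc
Actg1: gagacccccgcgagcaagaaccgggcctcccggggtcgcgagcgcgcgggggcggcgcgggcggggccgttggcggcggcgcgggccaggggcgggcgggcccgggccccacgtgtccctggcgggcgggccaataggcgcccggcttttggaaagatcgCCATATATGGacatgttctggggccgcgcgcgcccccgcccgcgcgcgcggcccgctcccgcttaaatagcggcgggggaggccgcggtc
Myl9: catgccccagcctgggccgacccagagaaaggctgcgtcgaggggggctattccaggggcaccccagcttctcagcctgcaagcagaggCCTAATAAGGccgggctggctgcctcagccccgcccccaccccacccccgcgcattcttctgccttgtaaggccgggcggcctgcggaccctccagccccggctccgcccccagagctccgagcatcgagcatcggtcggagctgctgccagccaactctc
Srf has 2 matches, which begin 82 and 62 bases before the start, in the promoter of the gene for the factor itself. A match is not a measured binding site. The box of Actg1 begins 90 bases and that of Myl9 161 bases before the start. The genes with a box were at 88.5% (Srf), 107% (Actg1) and 119% (Myl9) of control. Acta2, Tpm1, Tpm2, Tpm4 and Cnn1 have no match in the window, which says only that these letters are not in that stretch.

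The wider actin and SRF pathway was given by 9 lists of genes, some of which share genes. Leaving out the 10 members, 103 of 128 genes passed the filter. Of these, 4 were at least 1.5-fold higher (3.88%, against 3.42% of all genes) and 2 at least 1.5-fold lower (1.94%, against 1.95%). Their median difference was 0.02, and none reached 2-fold. The pathway as a whole thus had about the share of all genes past this size.

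**Figure D4:**
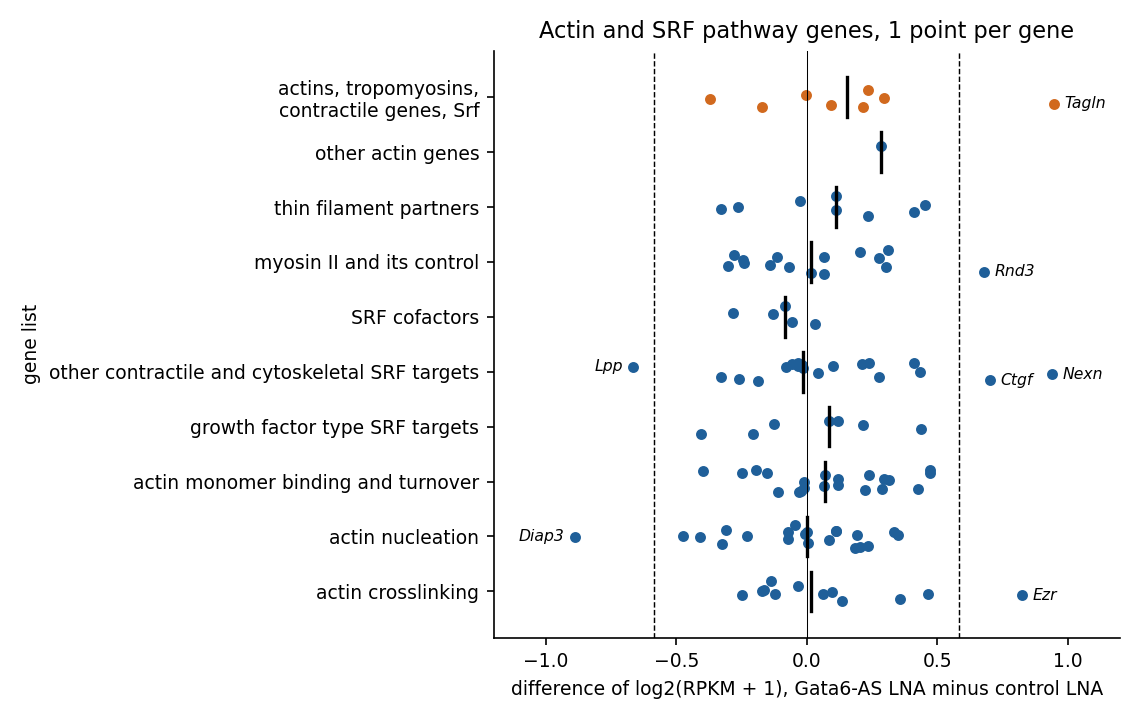
Difference of log2(RPKM + 1), Gata6-AS LNA minus control LNA, for the measured actin, tropomyosin, contractile and Srf genes (orange) and the genes of 9 pathway lists (blue), 1 point per gene, with a bar at each list's median. Dashed lines mark 1.5-fold. Tagln, Nexn, Ctgf, Ezr and Rnd3 lie above it and Diap3 and Lpp below, while list medians lie between -0.08 and 0.29. The list at 0.29, other actin genes, holds 1 measured gene, Acta1, and the other pathway lists reach 0.11 at most.

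Among 22 other contractile and cytoskeletal targets of SRF, 19 were measured, 2 higher and 1 lower by at least 1.5-fold, with a median of -0.02. Nexn, the actin-binding protein nexilin of muscle, was at 2.66 RPKM with the control LNA and 6.02 RPKM with the Gata6-AS LNA (227% of control, 195% to 264%). Ctgf, a secreted matricellular protein that YAP also controls, was at 152 and 248 RPKM (163%). Lpp, a LIM protein of adhesion sites, was at 10.8 and 6.44 RPKM (59.6%). The authors' deposited table has log2 differences of 1.08 for Nexn, 0.72 for Ctgf and -0.69 for Lpp. The abundant LIM protein gene Csrp2 was at 280 and 277 RPKM, and the matricellular gene Cyr61 at 170 and 230 RPKM. SRF targets of the growth factor type gave 7 measured genes of 9, a median of 0.09 and none past 1.5-fold. Fos was at 25.7 and 30.0 RPKM, Egr1 at 35.2 and 32.1 RPKM, and Ier2 at 48.6 and 42.0 RPKM.

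The myosin II list had 15 of 19 genes measured, a median of 0.02 and 1 gene at least 1.5-fold higher. This was Rnd3, a GTPase that opposes RhoA, at 5.66 RPKM with the control LNA and 9.66 RPKM with the Gata6-AS LNA (171%, 160% to 183%). The nonmuscle heavy chain gene Myh9 was at 73.1 and 88.9 RPKM and the light chain gene Myl12b at 81.2 and 101 RPKM (122% and 124% of control). The essential light chain gene Myl6 was at 412 and 393 RPKM and Rhoa at 101 and 103 RPKM. The kinases Rock1 and Rock2, which activate myosin II, were at 83.2% and 81.0% of control.

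Thin filament partners had 8 of 12 genes measured and none past 1.5-fold, with a median of 0.11. Caldesmon, Cald1, which binds tropomyosin-coated filaments, was at 26.1 and 20.6 RPKM (78.9% of control). Of 23 genes for monomer binding and filament turnover 21 were measured, none past 1.5-fold, with a median of 0.07. The filament-severing protein cofilin, Cfl1, was at 456 and 567 RPKM (124%), profilin, Pfn1, at 119 and 166 RPKM (139%), and Tmsb10, a monomer-binding thymosin, at 210 and 258 RPKM (123%). Cfl2 was at 75.1% of control.

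Of 23 genes for actin nucleation and elongation 21 were measured, 1 of them past 1.5-fold, with a median of 0.00. This was Diap3, a formin, at 23.4 RPKM with the control LNA and 12.2 RPKM with the Gata6-AS LNA (52.1%, 50.5% to 53.6%). The Arp2/3 complex genes Arpc2 and Actr3 were both at 108% of control. Of 13 crosslinking genes 12 were measured and 1 was at least 1.5-fold higher, with a median of 0.02. This was Ezr, the membrane linker ezrin of epithelial surfaces, at 21.97 RPKM with the control LNA and 39.7 RPKM with the Gata6-AS LNA (181%, 176% to 186%). Actn1 stood at 84.5 and 74.99 RPKM and Actn4 at 58.7 and 75.4 RPKM.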

How the data were processed

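The authors' deposited expression table gives RPKM, per the file headers. TopHat and mm9 are named in the submitters' processing notes, which give no version, counting tool, annotation or strand setting. The authors' deposited second table holds log2 values, log2 differences and a p-value (up to 0.0750) for 2099 genes, from an unstated test.

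The filter was a mean of 1 RPKM or more, the pseudocount 1 RPKM. Depth came from 802 and 859 genes with a span under 3000 bp whose RPKM times length is a whole multiple of 1 read's worth, within 0.0003 of a read. The least whole reads that give both RPKM values at 1 length up to 30000 bp (relative tolerance 3e-07 plus 0.0002 reads) gave the exact intervals. A value of 0 over a kilobase allows 3 reads, which is 0.0290 RPKM at the depth of the control and 0.0244 RPKM at that of the other library.

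The members and the 15 lists (174 genes, all matched, 4 through RefSeq synonyms) were chosen with earlier results of these data known. Named were the members and, per list, up to 4 genes per direction past 1.5-fold and the 2 of highest mean. A gene that this rule names is not reported here. Chosen after their values were seen were Actc1, Myl2, Actbl2, Actg2, Tpm3, Cnn2, Cald1, Synm, Myh6, Myh7, Myh11, Des, Myocd, Mkl2, Elk1, Fos, Egr1, Myh9, Myl12b, Rock1, Rock2, Pfn1, Cfl2, Actn4 and the overlapping genes. Stretches of 50 bases were searched in GENCODE M21 transcripts, and coding sequences are the longest open reading frames. Scripts, tested on simulated data, used Python 3.11.15, numpy 2.4.6, pandas 2.3.3, scipy 1.17.1 and matplotlib 3.10.9.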

Additional observations from a re-analysis of the deposited data

How the results depend on the processing

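No member changed its sign under the alternatives: pseudocounts of 0.1 and 0.5 RPKM, centring on the median of all genes, scaling to 1000000 summed RPKM or to the upper quartile, no filter, a mean of 5 RPKM or more, and the authors' deposited table for Tagln. Among members that passed the filter in use, Tagln was the 1 past 1.5-fold under each of them, with differences from 0.90 to 1.02. At a pseudocount of 0.1 RPKM it passed 2-fold, so that this count went from 0 to 1. The median difference of the members, 0.15, was 0.11 with the median of all genes as 0 and 0.22 with no filter, where Cnn1 and Tpm2 enter. The authors' deposited table, which lists 1 member, gives no such median. At a pseudocount of 0.1 RPKM these genes, which the filter of 1 RPKM leaves out of the count, were at 0.70 and 0.64, past 1.5-fold. Over all genes, those past 1.5-fold numbered 619 higher and 324 lower at that pseudocount and 476 and 333 with scaling to summed RPKM, against 372 and 212. Scaling to this sum also raises all values against the fixed pseudocount. No paired analysis was possible because there is 1 library per group. For Actb and Actg1 counting error is about 1%, so that variation between cultures, which was not measured, limits what can be read from them.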

Other observations

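The CArG box was also looked for in all other expressed genes, a search chosen after the data were seen and given as a description with no test. Of 7561 expressed genes with a RefSeq promoter window, 116 besides the members had the box within 250 bases upstream of a start. Their median difference of log2(RPKM + 1) was 0.09, against 0.05 for the 7561 genes. At least 1.5-fold higher were 3 of them (2.59%, against 3.53% of the 7561 genes): Rnd3, Rhox2h and Tada3. At least 1.5-fold lower were 7 (6.03%, against 1.93%): the arrestin-domain gene Arrdc4 (76.4 RPKM in the control, 25.3 RPKM in the depleted library), the RNA-binding protein gene Elavl4 (3.69 and 0.817 RPKM), the guidance receptor gene Robo1 (19.5 and 8.70 RPKM), the R-spondin receptor gene Lgr4 (9.93 and 4.97 RPKM), Rnf128 (7.15 and 3.46 RPKM), Fut8 (43.4 and 24.2 RPKM) and Iah1 (21.9 and 12.5 RPKM). None of these 7 is in the contractile lists. A match in the window is not a sign of binding.

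Acta1, the skeletal muscle actin gene, had a level above that of Acta2 in both libraries, while the cardiac gene Actc1 was listed at 0. Of the stretches of 50 bases of Acta1, 28 occur in Actb and 10 in Actg1, out of 1397. For Actc1 the number is 0 in both. Reads of Actb and Actg1 from such stretches cannot be told apart from those of Acta1. The place of Acta1 above Acta2 and Actc1 is uncertain to that extent. Other striated muscle genes at very low levels were Myh6, at 0.300 and 0.548 RPKM, and Myh7, at 0.488 RPKM with the control LNA and 205% of that with the Gata6-AS LNA.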
